A study of Mus musculus with 42 samples.

Results

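Immobilized tibialis anterior (TA) muscle of mice that overexpress Sesn1 in skeletal muscle was compared with immobilized TA muscle of mice that overexpress Sesn2 there. The comparison rested on 7 of the 42 RNAseq libraries of the series, 3 of Sesn1SkM-Tg mice (Sesn1Tg) and 4 of Sesn2SkM-Tg mice (Sesn2Tg), which were taken by their labels for line, immobilization and sequencing set 1, and not by any measured value. All were male mice of 4 months, labelled C57BL/6J in both lines, and one hindlimb had been fixed in a splint for 3 days before the muscle was taken. The Sesn1Tg line carries a human Sesn1 cDNA behind the muscle creatine kinase (MCK) promoter, which is active in muscle fibres. The Sesn2Tg line carries a tetracycline-regulated Sesn2 transgene together with a separate transgene that drives the tTA activator from the MCK promoter, and so bears 2 constructs where Sesn1Tg bears 1. Which sestrin is overexpressed, the construct that carries it and the line's own breeding history therefore cannot be told apart in this comparison. Immobilized muscle of non-transgenic (WT) mice in the same set (3 libraries) gave the control level, and basal, non-immobilized muscle of each line (4 libraries each) showed whether a difference was already there before the splint. The WT mice were littermates in both lines, and the labels do not say which line the WT libraries of set 1 came from.

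Sestrins are stress-inducible proteins that restrain the growth kinase complex mTORC1 through GATOR2, in part as sensors of leucine, and that also act on the kinase AKT. In skeletal muscle, active AKT keeps FoxO transcription factors out of the nucleus, whereas FoxO factors that stay there switch on genes of muscle wasting, among them the ubiquitin ligases atrogin-1 (Fbxo32) and MuRF1 (Trim63). The question of the comparison is whether muscles that express one or the other sestrin hold the same transcriptome during disuse.

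Values are the authors' normalized counts, given here per library and in replicate order. Differences are Sesn1Tg minus Sesn2Tg on the scale log2(value + 1), with the standard error (SE) of limma and its Benjamini-Hochberg adjusted p over 13705 genes. A gene counts as called where this p is below 0.05 and the log2 difference is 0.25 or more in size. Folds are ratios of the group means of the normalized counts. The libraries summed to 766506 to 959671 in immobilized Sesn1Tg and 832931 to 960596 in immobilized Sesn2Tg, and the number of reads behind these sums is not known. The log2 values of 2 libraries of a group correlated at 0.958 to 0.976 across genes in Sesn1Tg and at 0.972 to 0.988 in Sesn2Tg. No source used here says how the libraries map to animals beyond their numbering, so the adjusted p-values measure a spread between libraries. That spread was pooled over all 22 libraries of set 1, WT and basal muscle included, and is not that of the compared libraries alone. With only the compared groups fitted, 143 genes were called in place of 793.

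In immobilized muscle each line held more of the sestrin named in its label. Sesn1 stood at 51.1, 46.9 and 23.0 in Sesn1Tg against 15.6, 16.2, 14.0 and 13.9 in Sesn2Tg, and at 15.2, 12.4 and 13.1 in WT. All 3 Sesn1Tg libraries lay above all other immobilized libraries of the set, with a mean 2.71-fold that of Sesn2Tg and a log2 difference of 1.301 ± 0.24 (SE, adjusted p = 0.0047). The third Sesn1Tg library held less than the others, and in basal muscle the difference was 2.37 (adjusted p = 1.5e-06). Sesn2 stood at 4.0, 3.23 and 4.63 in Sesn1Tg against 13.6, 14.5, 11.8 and 8.01 in Sesn2Tg, and at 2.76, 1.86 and 2.96 in WT. Its log2 difference was -1.37 ± 0.22 (SE, adjusted p = 0.0018) in immobilized and -1.43 in basal muscle. Sesn3, the remaining family member, differed by 0.32 on the log2 scale with a 95% confidence interval from -0.28 to 0.92 (adjusted p = 0.55), and the groups overlapped. Reads were mapped to mouse transcripts only, so a read of a human transgene cannot be told from one of the mouse gene, and these values do not give the ratio of Sesn1 to Sesn2 protein or of the 2 transgenes.

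**Figure D1:**
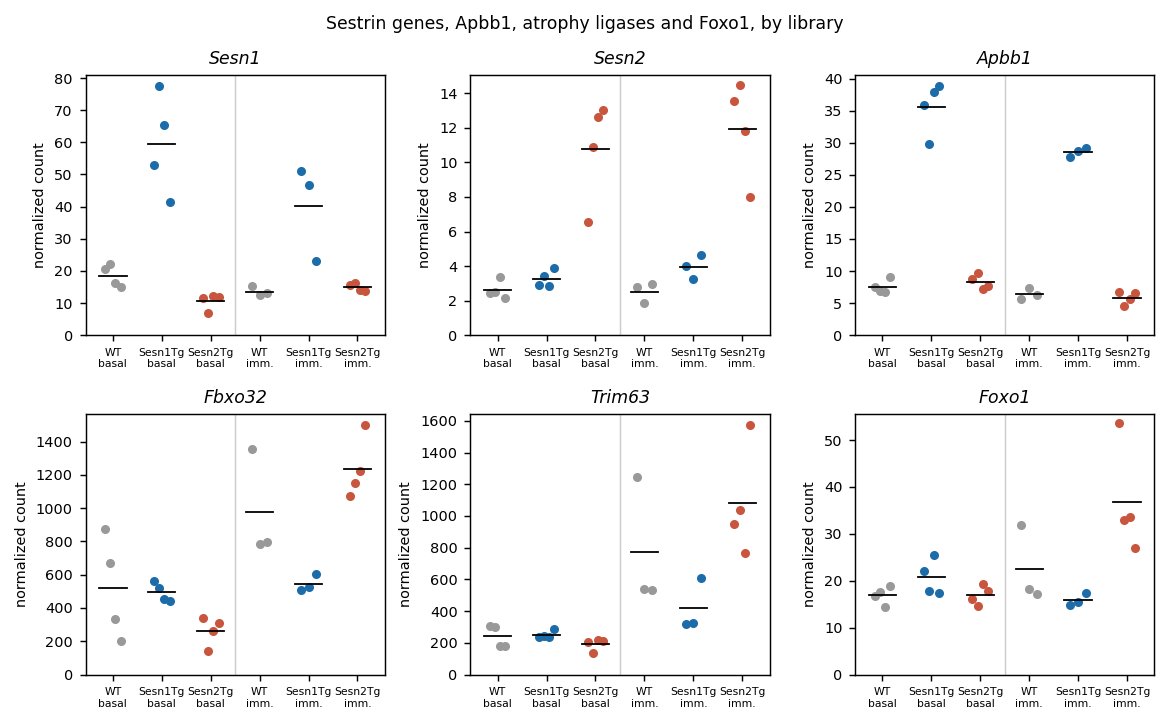
Normalized counts of Sesn1, Sesn2, Apbb1, Fbxo32, Trim63 and Foxo1 in each library of set 1, with one point per library and a line at the group mean. Basal groups are to the left and immobilized groups to the right of the divider, Trim63 lies between 318 and 608 in immobilized Sesn1Tg and between 768 and 1573 in immobilized Sesn2Tg, and Apbb1 from 27.7 to 29.2 against at most 6.8.

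The gene with the smallest adjusted p was neither sestrin but Apbb1, which encodes Fe65, an adaptor that binds the amyloid precursor protein. Apbb1 (GRCm38 chr7:105558483-105581653, minus strand) stood at 27.7, 28.7 and 29.2 in immobilized Sesn1Tg and at 6.8, 4.49, 5.59 and 6.6 in immobilized Sesn2Tg, while WT libraries held 5.72, 7.28 and 6.33. The Sesn1Tg libraries lay together and far from all others, 4.86-fold above Sesn2Tg, with a log2 difference of 2.12 ± 0.15 (SE, adjusted p = 2.7e-08) that was of like size in basal muscle (1.97, adjusted p = 2.4e-08). It was also the 1 gene called between immobilized Sesn1Tg and WT muscle (0.0073% of genes tested; 417 had an unadjusted p under 0.05), with a log2 difference of 1.99, against -0.12 between Sesn2Tg and WT. Of 16 genes tested within 500 kb to either side, Apbb1 included, it was the 1 called in immobilized muscle (5.79% of all genes tested were). In basal muscle, Trim3 (log2 difference 0.72, adjusted p = 0.0023) and Dnhd1 (1.10, adjusted p = 0.0053) were higher in Sesn1Tg as well. The place of the transgene insertion is not given in the sources used here, and its part in this result was not tested.

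Across all genes, 793 of 13705 (5.79%) were called between the immobilized lines, 395 (2.88%) higher and 398 (2.9%) lower in Sesn1Tg, and 256 of them differed by at least 1 on the log2 scale. The libraries of both groups did not overlap for 2544 genes (18.6%), 905 higher and 1639 lower. Scaling each library to a common sum, which moved the median difference over all genes from -0.02 to 0.08, turned this even split into 505 higher and 186 lower calls. Set against WT, the 2 lines were placed very differently: 1 gene was called between immobilized Sesn1Tg and WT, and 403 (2.94%) between immobilized Sesn2Tg and WT, 226 higher and 177 (1.29%) lower. Both counts use the same WT libraries, and Sesn2Tg has 1 library more than Sesn1Tg.

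The number of calls depended on single libraries. It was 1308 without Sesn1Tg replicate 1, of which 872 were higher in Sesn1Tg, 146 without Sesn1Tg replicate 2 and 381 without replicate 3. Leaving out Sesn2Tg replicates 1, 2, 3 and 4 gave 506, 830, 357 and 475 calls. Of the 793 genes, 111 were called in each of the 7 fits with a library left out (50 higher and 61 lower in Sesn1Tg), and 26 in none of them. Sesn1, Sesn2 and Apbb1 were among the 111. For a single gene, the exact two-sided permutation test over 3 against 4 libraries cannot give a p below 0.0571, which was its value for Sesn1, Sesn2, Apbb1, Fbxo32 and Trim63, because for each of them the groups did not overlap.

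**Figure D2:**
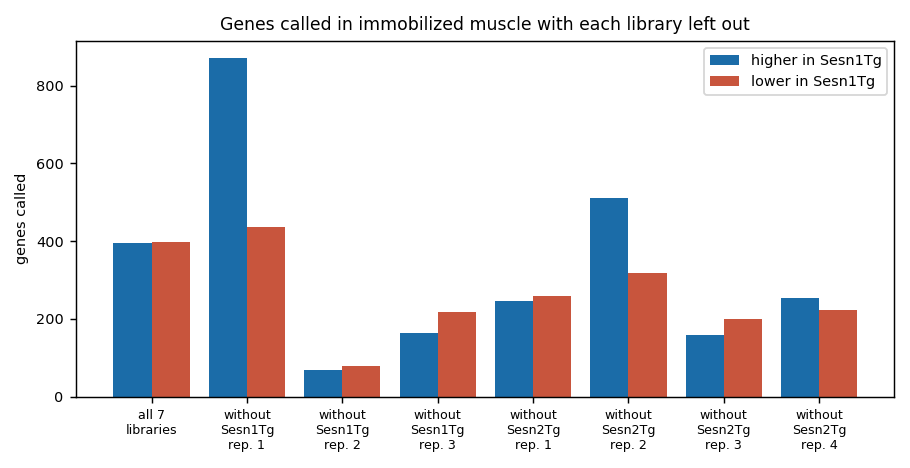
Number of genes called between immobilized Sesn1Tg and Sesn2Tg muscle, higher (blue) and lower (red) in Sesn1Tg, with all 7 libraries and with each left out in turn. The highest bar is the 872 higher genes without Sesn1Tg replicate 1, and the counts are lowest without Sesn1Tg replicate 2 (68 higher and 78 lower).

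Of the best known ubiquitin ligase genes of muscle wasting, Trim63 was lower in immobilized Sesn1Tg than in immobilized Sesn2Tg muscle, while Fbxo32 stood lower without passing the test. Trim63 (MuRF1, GRCm38 chr4:134315120-134329629, plus strand), which marks sarcomeric proteins for the proteasome, stood at 318, 328 and 608 in Sesn1Tg against 947, 1040, 768 and 1573 in Sesn2Tg. The groups did not overlap, and Sesn2Tg held 2.59-fold the mean of Sesn1Tg (log2 difference -1.39 ± 0.30, SE, adjusted p = 0.011). WT muscle spanned both lines at 1249, 537 and 534, with log2 differences of -0.83 for Sesn1Tg and 0.56 for Sesn2Tg against WT, neither called. The call held in 6 of the 7 fits with a library left out and not without Sesn1Tg replicate 2, where the adjusted p was 0.073. Fbxo32 (atrogin-1, GRCm38 chr15:58175879-58214932), the substrate receptor of an SCF ligase, stood at 510.4, 523 and 604 in Sesn1Tg against 1075, 1153, 1221 and 1499 in Sesn2Tg. These libraries did not overlap either, yet the difference of -1.17 ± 0.36 (SE) missed the threshold (adjusted p = 0.055), and of the WT libraries, at 1357, 782 and 799, 1 lay within the Sesn2Tg range and the other two between the lines.

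In basal muscle the order of the lines was the other way round for Fbxo32, at 496 ± 56.9 in Sesn1Tg and 263 ± 87.5 in Sesn2Tg (SD, n = 4 each), with a log2 difference of 0.98 that was not called (adjusted p = 0.16). The difference between the lines in the immobilization effect was -2.15 for Fbxo32 and -1.78 for Trim63, each at an adjusted p of 0.07 and so not called. Trim54 (MuRF3), a relative of MuRF1 at the sarcomere, was the other called member of a list of 31 atrophy ligases and FoxO-driven atrogenes (388, 257 and 355 against 431, 597, 451 and 504, log2 difference -0.58 ± 0.16, SE, adjusted p = 0.034), a call lost in 10 of 21 alternative settings (adjusted p up to 0.237). Thus 2 of 31 members were called, both lower in Sesn1Tg, or 6.45% against the 2.9% of all genes called lower. The list's median log2 difference was -0.22 in immobilized muscle, where 25 of 31 members were negative, and 0.24 in basal muscle, where 25 were positive, beside -0.02 for all genes in both. Without a library, its lower calls ranged from 0 (Sesn1Tg replicate 2) to 3 (Sesn1Tg replicate 1). The immobilized median was -0.10 after quantile normalization as well as with each library scaled to a common sum, each with 1 lower call, and -0.14 without Sesn1Tg replicate 2.

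The Trim63 promoter is shown because the gene is a known FoxO target and its level separated the lines. It covers 250 bases before and 50 after the RefSeq start site (GRCm38.p6 chr4:134314870-134315169, plus strand), 5′ to 3′, and the capitals mark the FoxO motif TGTTTAC (the reverse complement of GTAAACA), which begins 194 bases upstream of the start.
Trim63 promoter: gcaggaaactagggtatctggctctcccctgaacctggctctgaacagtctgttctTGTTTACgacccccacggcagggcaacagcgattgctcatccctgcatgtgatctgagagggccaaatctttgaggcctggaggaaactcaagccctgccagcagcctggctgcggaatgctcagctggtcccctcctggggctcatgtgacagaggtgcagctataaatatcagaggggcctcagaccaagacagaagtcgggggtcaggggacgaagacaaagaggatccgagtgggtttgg

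Either strand of this motif occurred in 1199 of 32851 mouse promoter windows of the same length in the RefSeq table (3.65%). Of the atrogene list, 26 of 31 members had a window in the table and Trim63 was the 1 that held the motif. Fbxo32 was among the members without a window, so its promoter was not searched. A match of letters describes the window and is not a binding site.

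FoxO and insulin signalling genes differed in both directions. Foxo1, which encodes a FoxO factor that activates Fbxo32 and Trim63, stood at 14.9, 15.5 and 17.4 in Sesn1Tg against 53.6, 33.0, 33.5 and 26.9 in Sesn2Tg. All Sesn1Tg libraries were below all Sesn2Tg libraries (2.3-fold, log2 difference -1.11 ± 0.21, SE, adjusted p = 0.0056), the call held with any one library left out, and WT muscle stood at 31.9, 18.3 and 17.2. Irs2, an adaptor of the insulin receptor, was 2.37-fold higher in Sesn2Tg (5.99, 4.86 and 3.97 against 12.3, 13.4, 9.6 and 11.5, log2 difference -1.10 ± 0.28, SE, adjusted p = 0.024). Akt1, the kinase upstream of FoxO, was 1.73-fold higher in Sesn2Tg (90.1, 103 and 121 against 171, 195, 154 and 205, log2 difference -0.79 ± 0.18, SE, adjusted p = 0.014). In neither gene did the groups overlap. The gene 8430408G22Rik, named Depp1 by RefSeq and known as a FoxO target, had the most negative difference of the calls that held with any library left out, at 4.88, 2.41 and 2.88 against 14.4, 12.8, 19.5 and 37.2 (-2.24 ± 0.33, SE, adjusted p = 0.00084).

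The growth factor Igf1 lay on the other side. It stood at 12.7, 28.8 and 23.6 in Sesn1Tg and at 6.85, 12.5, 5.61 and 7.92 in Sesn2Tg (log2 difference 1.28 ± 0.32, SE, adjusted p = 0.023), with WT at 18.2, 15.9 and 24.7. Igfbp5, which encodes an IGF-binding protein, was 2.41-fold higher in Sesn1Tg (378, 715 and 625 against 290.3, 149, 189 and 321, adjusted p = 0.017), and the lines differed by as much in basal muscle (log2 difference 1.34, adjusted p = 0.012). Igfbp4 was higher (0.86, adjusted p = 0.049, a call lost in 10 of 21 alternative settings) and Igfbp3 lower (-0.996, adjusted p = 0.021) in Sesn1Tg. In all, 3 of 32 genes of insulin, AKT and FoxO signalling were called higher (9.38%, against 2.88% of all genes) and 4 lower (12.5%, against 2.9%), and the list's median was -0.11. None was called higher without Sesn1Tg replicate 2 or without replicate 3, each of which left 2 lower calls, and the median was -0.0024 without replicate 2 and -0.014 with scaling to a common sum.

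Glucocorticoids are known to drive muscle wasting together with FoxO factors, and their target genes were compared for that reason. Fkbp5, a receptor co-chaperone that is induced by glucocorticoids, stood at 27.6, 19.98 and 19.8 in Sesn1Tg against 60.2, 110.1, 54.0 and 50.0 in Sesn2Tg, and at 28.7, 25.5 and 25.3 in WT. Sesn1Tg thus lay at the WT level and Sesn2Tg above both (log2 difference between the lines -1.51 ± 0.28, SE, adjusted p = 0.0056, and 1.27 between Sesn2Tg and WT, adjusted p = 0.02). Klf10, a zinc-finger factor outside the list, was lower in Sesn1Tg as well (12.6, 18.1 and 15.5 against 37.2, 35.4, 60.5 and 37.7, adjusted p = 0.0068). The transcription factor Cebpb (-1.06, adjusted p = 0.019) and Ddit4 (-1.24, adjusted p = 0.047), which encodes the mTORC1 inhibitor REDD1, made up the 3 called of 18 members with Fkbp5, all lower (16.7%, against 2.9% of all genes). The call of Ddit4 held in 1 of the 7 fits with a library left out, and the list's lower calls ranged from 1 without Sesn1Tg replicate 2 to 6 without Sesn1Tg replicate 1.

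Basal muscle again gave another picture. There 3 of the 18 members were called, against 1.01% of all genes called higher, and all were higher in Sesn1Tg: Tsc22d3, which encodes GILZ (0.93, adjusted p = 0.0092), the kinase gene Sgk1 (0.96, adjusted p = 0.0089) and Pdk4, a brake on pyruvate dehydrogenase (1.67, adjusted p = 0.003). In immobilized muscle the same genes differed by -0.39, -0.30 and -0.21, none called. The median of the list was -0.40 in immobilized and 0.18 in basal muscle, and no member was called for the difference between the lines in the immobilization effect.

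Genes of the integrated stress response, in which phosphorylated eIF2α slows translation and favours the factor ATF4, were lower in Sesn1Tg where they were called. Atf4 stood at 214, 149.5 and 219.8 in Sesn1Tg and at 257, 396, 251 and 326 in Sesn2Tg, with WT at 188, 186 and 184 (log2 difference -0.65 ± 0.16, SE, adjusted p = 0.019). Ppp1r15a (GADD34), the phosphatase subunit that ends the response, stood at 57.2, 24.5 and 76.2 against 90.6, 218, 69.6 and 141 (-1.30 ± 0.33, SE, adjusted p = 0.026). For Atf4 the groups were apart and Sesn1Tg was near WT, while for Ppp1r15a the third Sesn1Tg library overlapped Sesn2Tg. Together with Cebpb, Aars and Sesn2, the transgene of the other line, 5 of 30 members were called lower (16.7%, against 2.9% of all genes) and none higher, a count that includes the transgene by which the groups were defined. The list's median was -0.17, and -0.05 with each library scaled to a common sum, -0.07 after quantile normalization or without Sesn2Tg replicate 4 and -0.08 without Sesn1Tg replicate 2.

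Aars, the alanyl-tRNA synthetase, is a gene of this response and of tRNA charging. It stood at 141, 102 and 129 in Sesn1Tg against 172, 214, 172 and 201 in Sesn2Tg, 1.53-fold apart without overlap (-0.62 ± 0.13, SE, adjusted p = 0.0095). The synthetases Lars, Vars, Cars and Mars were lower in Sesn1Tg too, by -0.54, -0.51, -0.51 and -0.44 on the log2 scale. These 5 were the called members of 36 aminoacyl-tRNA synthetase genes (13.9%, against 2.9% of all genes), none being higher, and the list's mean log2 level was 5.27, 5.16 and 5.22 in the Sesn1Tg libraries against 5.40, 5.42, 5.46 and 5.43 in those of Sesn2Tg. Without Sesn1Tg replicate 2, none of the 36 and 1 of the 30 stress response genes were called lower, and 2 of the 36 were after quantile normalization or scaling to a common sum. The call of Lars was lost in 10 of 21 alternative settings.

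The Aars promoter is printed because it holds a C/EBP-ATF response element, the motif through which ATF4 acts (TGATGCAA, or TTGCATCA on the other strand). The window (GRCm38.p6 chr8:111033592-111033891, plus strand) runs 5′ to 3′, and its capitals mark the element, 112 bases upstream of the RefSeq start.
Aars promoter: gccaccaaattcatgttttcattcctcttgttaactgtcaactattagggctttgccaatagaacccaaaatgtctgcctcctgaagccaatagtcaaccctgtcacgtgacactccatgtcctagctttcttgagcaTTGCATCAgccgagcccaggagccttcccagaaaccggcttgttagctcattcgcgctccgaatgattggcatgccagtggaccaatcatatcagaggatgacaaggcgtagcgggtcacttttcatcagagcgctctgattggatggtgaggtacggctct

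The element occurred in 294 of 32851 windows (0.895%). Of 26 members of the stress response list with a window, 6 held it (Aars, Atf3, Chac1, Nupr1, Pycr1 and Vldlr), and of those only Aars was called between the lines. Among 26 synthetase genes with a window, the element was found in Aars, Iars, Tars and Yars, of which again Aars alone was called. Of the 5 called synthetase genes, Aars was the 1 with a window, so Lars, Vars, Cars and Mars were not searched.

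Some genes of the protein-degrading machinery itself were lower in Sesn1Tg. Of 48 proteasome subunit genes, Adrm1 (the ubiquitin receptor Rpn13), Psmd4 (the ubiquitin receptor Rpn10), Psmd3 and the ATPase gene Psmc2 were called lower in Sesn1Tg (8.33%, against 2.9% of all genes), by -0.66, -0.61, -0.59 and -0.55. Adrm1 stood at 135, 120.4 and 142 in Sesn1Tg against 182, 243, 209.8 and 209.8 in Sesn2Tg, with WT at 127, 145 and 122. The median of the proteasome subunits was -0.23 in immobilized and -0.10 in basal muscle, with 40 of 48 negative in each. With each library scaled to a common sum, the immobilized median was -0.11 with 2 lower calls, as it was after quantile normalization, and the basal median turned to 0.016 with 20 of 48 negative. Without Sesn1Tg replicate 2, 1 subunit was called lower, and without Sesn2Tg replicate 4, 2 were. Of 48 genes of the autophagy machinery, 1 was called (2.08%), Optn (optineurin), an autophagy receptor for ubiquitinated cargo (-0.82 ± 0.17, SE, adjusted p = 0.01). Longer compiled lists of proteolysis and stress genes held 19 lower and 2 higher genes of 452 for the ubiquitin-proteasome system (4.65% called) and 10 lower and 1 higher of 197 for the unfolded protein response (5.58%), where 5.79% of all genes were called. The lower calls alone made up 4.2% and 5.08% of these lists, against 2.9% of all genes. The higher calls made up 0.44% and 0.51%, against 2.88%. The other compiled lists held 30 lower and 12 higher of 507 for autophagy (8.28%), 7 lower and none higher of 85 for the heat shock response (8.24%, with 3 lower calls after scaling to a common sum and 4 after quantile normalization), and 4 lower and 6 higher of 90 antioxidant genes (11.1%).

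In the leucine-sensing arm of mTORC1, to which sestrins belong, 3 of 54 genes were higher (5.56%, against 2.88% of all genes) and 4 lower (7.41%, against 2.9%) in Sesn1Tg, Sesn1 and Sesn2 themselves among them, with a median of -0.10 that turned positive when each library was scaled to a common sum. Apart from the sestrins and Ddit4, these were Prkag3, Gatsl2, Flcn and Mtor. Prkag3, the AMPK gamma subunit of fast fibres, stood at 104, 88.1 and 50.9 in Sesn1Tg against 31.5, 16.8, 29.9 and 24.7 in Sesn2Tg (1.59 ± 0.25, SE, adjusted p = 0.0015), with WT at 91.6, 86.0 and 65.7. Its lower level was thus on the Sesn2Tg side, as it was for Gatsl2 (CASTOR2), a relative of the arginine sensor CASTOR1 (89.7, 121 and 74.5 against 56.0, 50.1, 49.1 and 54.0, and 170.0, 129 and 114 in WT). Both genes were also called in basal muscle, by 1.12 and 0.78. Flcn (folliculin), a GTPase activator of the mTORC1 pathway, was lower in Sesn1Tg (39.7, 37.8 and 38.7 against 58.9, 58.6, 61.7 and 65.9, adjusted p = 0.0072), and Mtor was 1.49-fold lower (adjusted p = 0.034), a call that was lost when any one library was left out.

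The widest difference in a group of genes concerned the extracellular matrix. Of 43 collagen and matrix genes, 22 were higher in immobilized Sesn1Tg (51.2%, against 2.88% of all genes) and none was lower, with a median of 1.41. Col1a1, a chain of type I collagen, stood at 105, 244 and 795 in Sesn1Tg against 40.2, 147, 40.0 and 56.7 in Sesn2Tg, and Col3a1 at 306, 678 and 1131 against 133, 358, 102 and 150.4 (log2 differences 2.16 ± 0.59 and 1.90 ± 0.40, SE, adjusted p = 0.035 and 0.0095). In both genes replicate 2 of Sesn2Tg reached into the Sesn1Tg range and the Sesn1Tg libraries spread widely. WT muscle spanned both lines, at 79.5, 229 and 280.3 for Col1a1 and 254, 458 and 647 for Col3a1. In each gene the lowest WT library was within the Sesn2Tg range and the others within that of Sesn1Tg.

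Other matrix genes separated the lines more cleanly. Col6a1, a chain of the collagen VI network around muscle fibres, stood at 56.7, 55.4 and 85.1 in Sesn1Tg against 25.4, 25.6, 20.3 and 23.2 in Sesn2Tg (1.41 ± 0.18, SE, adjusted p = 0.0003), and Col6a2 behaved alike at 60.1, 51.6 and 83.8 against 21.6, 30.5, 16.6 and 24.0 (1.46 ± 0.24, SE, adjusted p = 0.0023). Fibronectin (Fn1) stood at 64.4, 108 and 196 against 29.5, 41.6, 24.0 and 42.3, and Col14a1, a fibril-associated collagen, at 7.39, 18.7 and 13.0 against 2.94, 3.22, 3.18 and 3.22. For these 4 genes the groups did not overlap and the call held with any library left out. Fndc1, a fibronectin-domain gene outside the list, was 3.64-fold higher in Sesn1Tg (21.6, 32.2 and 24.2 against 8.03, 6.1, 5.43 and 9.05, adjusted p = 0.00015), with WT at 18.1, 17.9 and 16.4.

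In basal muscle 3 of the 43 matrix genes were called (6.98%, against 1.01% of all genes called higher), all higher in Sesn1Tg: the metalloproteinase inhibitor Timp2 (0.54), the tendon matrix protein Thbs4 (1.80) and Dkk3 (2.63), a secreted protein of the Dickkopf family, beside a list median of 0.08. Against WT, immobilized Sesn1Tg had none of the 43 called and a median of 0.49. Immobilized Sesn2Tg had 5 of the 43 called lower, where 1.29% of all genes were, none higher and a median of -0.70. The mean log2 level of the list was 5.16, 5.62 and 6.26 in Sesn1Tg, 4.32, 4.81, 4.17 and 4.35 in Sesn2Tg and 4.74, 5.10 and 5.55 in WT, so that the lowest WT library was within the range of Sesn2Tg.

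Of the genes that mark other cells of the muscle, those of fibroblasts and macrophages were higher alongside the matrix. Red blood cell (6 of 6 negative), satellite cell (5 of 6) and smooth muscle and pericyte markers (6 of 9) leaned the other way. Of these, Cdh15 of satellite cells was called lower, a call lost in 11 of 21 alternative settings. Nerve and Schwann cell markers were even (4 of 8 negative), and adipocyte markers were positive in 7 of 9, without a call in either list. Of 11 fibroblast markers, 5 were higher in Sesn1Tg (45.5%) and none lower (median 0.89), but all of these (Col1a1, Col1a2, Col3a1, Lum and Dcn) are matrix genes as well, and none of the 5 markers outside the matrix list (Gsn, Ly6a, Mfap5, Pdgfra and Pi16) was called. Lum (lumican) stood at 50.4, 75.6 and 66.5 against 26.9, 19.2, 23.3 and 23.6. Of 20 macrophage and leukocyte markers, 7 were higher (35%, against 2.88% of all genes) and none lower, with a median of 1.31 in immobilized and -0.07 in basal muscle. C1qb, a complement component made by tissue macrophages, stood at 19.1, 55.3 and 41.0 in Sesn1Tg against 12.04, 15.7, 5.15 and 16.2 in Sesn2Tg, and the growth factor receptor gene Csf1r at 21.97, 47.7 and 47.6 against 13.2, 17.2, 6.83 and 15.5 (both adjusted p = 0.011). Replicate 1 of Sesn1Tg was the lowest of its group for each, above all Sesn2Tg libraries.

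Summed over the 20 markers, the level was 238, 697 and 671 in Sesn1Tg, 190.1, 388, 122 and 234 in Sesn2Tg and 342, 304 and 647 in WT, so that replicate 1 of Sesn1Tg lay within the range of Sesn2Tg. Without that library 17 of the 20 markers were called higher, without replicate 2 none and without replicate 3 2, whereas the 22 calls of the matrix list became 27, 9 and 9. Leaving out Sesn2Tg replicates 1 to 4 gave 6, 13, 3 and 8 macrophage calls and 17, 25, 13 and 16 matrix calls. Other genes of macrophages outside the list, Ccl8, a chemokine (4.29, 19.6 and 10.8 against 1.04, 3.42, 0.995 and 2.89), and Fcna, a ficolin (3.68, 4.29 and 3.08 against 0.978, 0.632, 0.671 and 0.888), were higher in Sesn1Tg with every library left out in turn. Ccl8 was named because its call held in this way, and Fcna for its call in the immobilization effect. Being picked by these same values, they are no separate evidence for the list.

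Of 40 cell cycle genes, 6 were higher (15%, against 2.88% of all genes) and none lower, with a median of 0.73. Mki67, a marker of dividing cells, stood at 1.83, 9.94 and 20.4 in Sesn1Tg against 2.08, 3.72, 0.593 and 1.54 in Sesn2Tg. The low first library overlapped Sesn2Tg while the third stood far above it, and the cell cycle calls became 26 without Sesn1Tg replicate 1 and none without replicate 2 or without replicate 3. Fast fibre markers, which should follow the muscle fibres themselves, had mean log2 levels of 13.37, 12.73 and 12.77 in Sesn1Tg and 13.10, 12.64, 12.99 and 13.09 in Sesn2Tg, and none of 12 was called. Endothelial markers went the other way without a call (0 of 14, median -0.26 with 13 negative, and -0.14 with 10 negative after scaling to a common sum). In whole muscle, more cells of a type and more RNA per cell cannot be told apart, and the part of macrophage and fibroblast markers in the matrix difference was not tested.

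**Figure D3:**
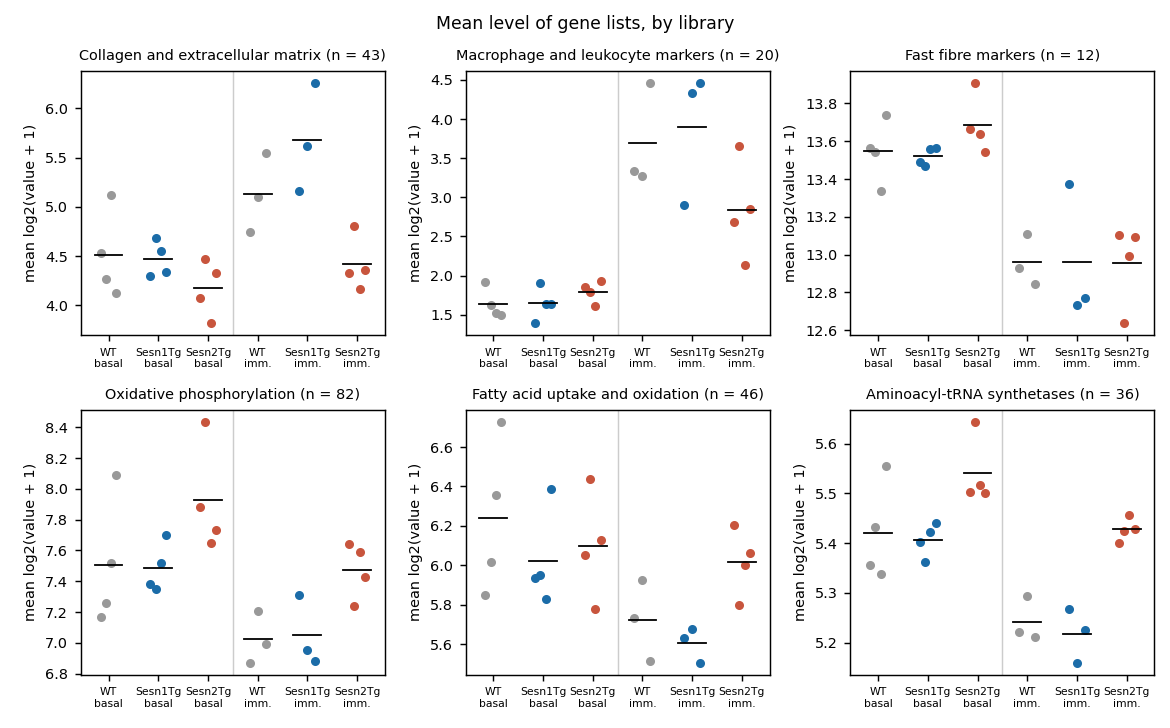
Mean log2(value + 1) of the members of 6 gene lists in each library of set 1, with one point per library, a line at the group mean and the number of genes in the title. Macrophage markers are higher in every immobilized than in every basal library, the immobilized Sesn1Tg libraries reach 6.26 for the matrix list against at most 4.81 in Sesn2Tg, and the points of both lines overlap for fast fibre markers.

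Tendon markers did not follow a single direction. Thbs4 (129, 82.0 and 140.3 against 42.4, 31.6, 52.3 and 35.1) and the collagen gene Col11a1 (7.77-fold, a call lost with any one library left out) were higher in Sesn1Tg, whereas Scx (scleraxis), the transcription factor that defines tendon cells, was lower at 7.94, 3.73 and 7.03 against 12.3, 29.4, 13.7 and 9.91 (-1.19 ± 0.30, SE, adjusted p = 0.023). WT stood at 8.6, 4.45 and 7.46 for Scx, near Sesn1Tg.

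Several genes of lipid storage and use were lower in immobilized Sesn1Tg. Plin4, a coat protein of lipid droplets, stood at 84.8, 96.4 and 72.4 in Sesn1Tg and at 327, 354, 212 and 314 in Sesn2Tg, with WT in between at 148, 169 and 138. The 3 groups did not overlap, Sesn2Tg was 3.57-fold above Sesn1Tg (-1.81 ± 0.17, SE, adjusted p = 3.8e-06), and in basal muscle the lines stood at 208 ± 20.7 and 237 ± 45.5 (SD, n = 4 each, log2 difference -0.17, adjusted p = 0.68). Of 46 genes of fatty acid uptake and oxidation, 5 were lower in Sesn1Tg (10.9%, against 2.9% of all genes) and none higher, with a median of -0.33 and 41 negative. They were the droplet protein Plin5 (3.28, 10.97 and 8.13 against 27.1, 18.5, 21.1 and 17.0), the lipase Pnpla2 (ATGL, -0.79), the mitochondrial thioesterase Acot2 (-1.001), the uncoupling protein Ucp3 and Mlycd. Mlycd encodes malonyl-CoA decarboxylase, which relieves the block on fatty acid import into mitochondria, and stood at 47.1, 63.0 and 53.7 against 135, 107, 114 and 124 (-1.12 ± 0.22, SE, adjusted p = 0.0073). Ucp3 stood at 62.4, 60.4 and 58.2 against 147, 96.6, 105 and 164 (-1.04 ± 0.24, SE, adjusted p = 0.016). The calls of Plin5 and Pnpla2 were lost with any one library left out, while that of Mlycd held throughout. With a library left out, the list's lower calls ranged from 1 (without Sesn1Tg replicate 2) to 5.

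Nearly all subunits of oxidative phosphorylation had small negative differences, with few calls. Of 82 genes, 81 had a negative difference in immobilized muscle and 81 in basal muscle, with medians of -0.40 and -0.43 beside -0.02 for all genes, so that the shift was present before the splint. In immobilized muscle 2 were called, Cox8b (197, 155 and 146 against 379.8, 261, 364 and 323) and the complex III subunit Uqcr10, both lower (2.44%, under the 2.9% of all genes), and in basal muscle Cox8b and Ndufa1. WT stood at 133, 199.9 and 156 for Cox8b, near Sesn1Tg, and the median of the list against WT was 0.02 for Sesn1Tg and 0.43 for Sesn2Tg. The shift was not particular to this list. Cytosolic ribosomal protein genes had 74 of 81 negative in immobilized muscle (median -0.20) and 77 in basal muscle (-0.27). Mitochondrial ribosomal protein genes had 74 of 78 negative in each state, with medians of -0.27 and -0.24.

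Genes of glucose use and of the response to oxygen differed one by one. Egln3, a prolyl hydroxylase that responds to oxygen, stood at 25.0, 25.5 and 16.7 in Sesn1Tg against 65.9, 101, 133 and 57.5 in Sesn2Tg (-1.89 ± 0.32, SE, adjusted p = 0.0027), and the glycolytic enzyme Gpi1 at 675, 589 and 534 against 1016, 966, 1110 and 1066 (adjusted p = 0.0065). For Egln3 and Gpi1 the groups did not overlap and Sesn1Tg was near WT. Pdp1, the phosphatase that activates pyruvate dehydrogenase, was higher in Sesn1Tg at 136, 95.02 and 67.6 against 35.4, 16.8, 33.6 and 31.7 (1.72 ± 0.26, SE, adjusted p = 0.00084) and also in basal muscle (1.26).

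**Figure D4:**
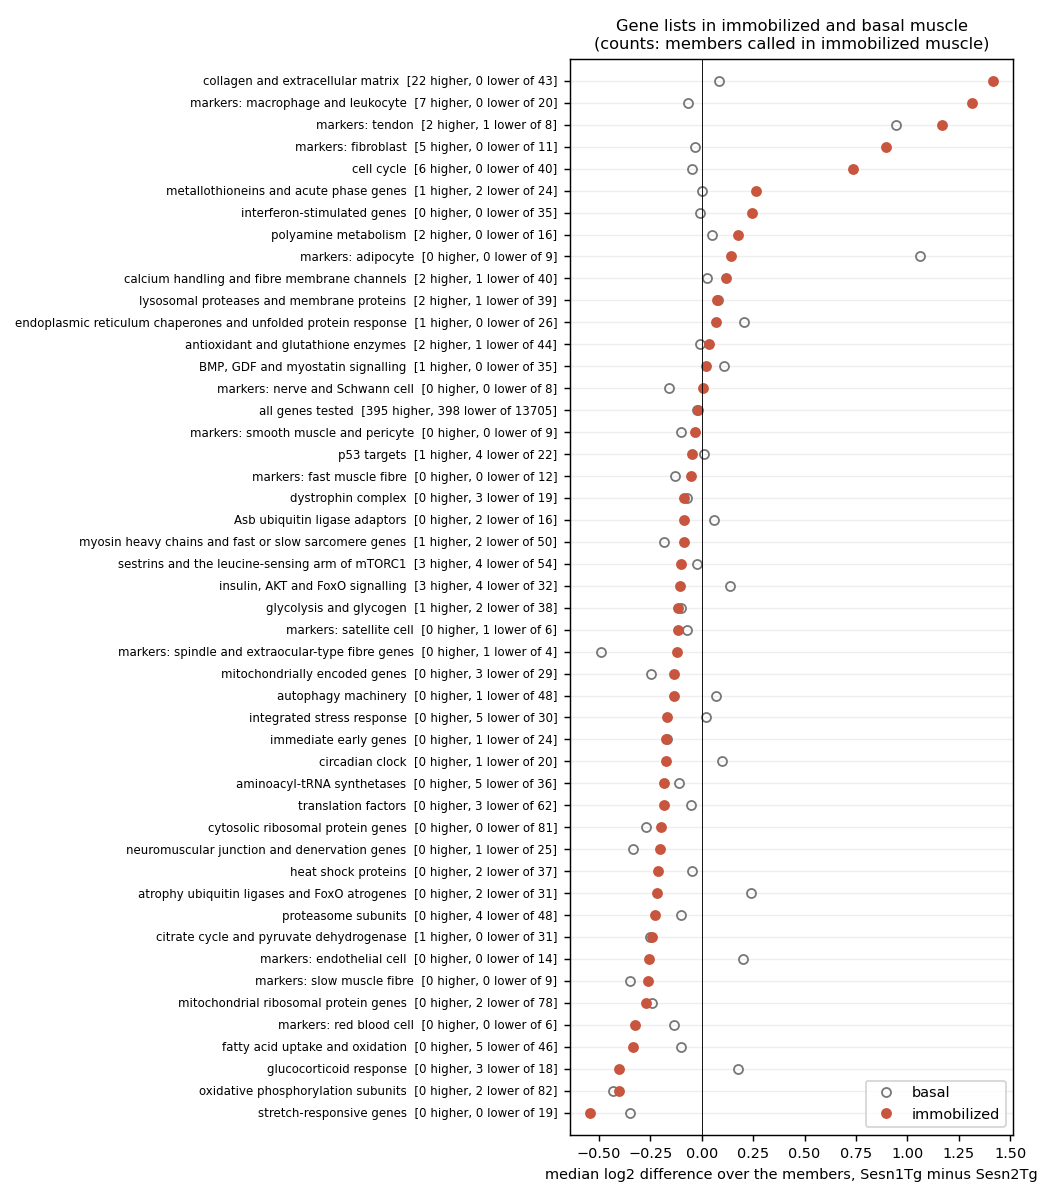
Median log2 difference (Sesn1Tg minus Sesn2Tg) over the members of each gene list in immobilized (filled) and basal (open) muscle, with the number of members called in immobilized muscle in brackets. Matrix, macrophage, tendon, fibroblast and cell cycle lists are at the upper end in immobilized muscle with medians from 0.73 to 1.41, and the list of oxidative phosphorylation subunits is near -0.40 in both states.

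The largest positive differences among calls that held with any library left out were those of the antisense RNA Srrm4os (10.8, 18.95 and 9.67 against 1.43, 1.01, 1.64 and 3.17, log2 difference 2.33 ± 0.34, SE), of Gm4841 (18.9, 11.6 and 6.14 against 0.948, 2.01, 1.65 and 1.69, 2.26 ± 0.46) and of Dupd1, which encodes a dual-specificity phosphatase (80.1, 29.4 and 53.5 against 7.57, 16.3, 7.03 and 14.8, 2.13 ± 0.30). In each the groups were apart, and none of the 3 was called in basal muscle.

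Among genes of the fibre itself, Actc1 (cardiac actin) was higher in Sesn1Tg at 19.6, 15.6 and 45.6 against 8.08, 3.77, 3.13 and 7.89 (2.00 ± 0.45, SE, adjusted p = 0.013). Myh8, the perinatal myosin heavy chain, was lower at 1.25, 3.17 and 0.843 against 6.39, 9.68, 7.28 and 4.16 (-1.56 ± 0.33, SE, adjusted p = 0.0097). Of 50 sarcomere genes these and the thin-filament protein gene Lmod2 (-1.10, adjusted p = 0.037) were called (6%, against 5.79% of all genes). Rapsn (rapsyn), which clusters acetylcholine receptors at the neuromuscular junction, was the 1 called of 25 genes of the junction and of denervation (4%), at 20.02, 23.2 and 20.7 against 43.6, 33.8, 49.6 and 36.2 (-0.89 ± 0.16, SE, adjusted p = 0.0037). Chrna9, a receptor subunit gene outside that list, stood at 0.159, 0.31 and 0.193 against 5.27, 1.02, 3.09 and 2.71, while WT libraries spread from 0.0438 to 2.01. Stretch-responsive genes had a median of -0.54 with 0 of 19 called. That median was -0.19 without Sesn1Tg replicate 2, -0.25 without Sesn2Tg replicate 2 and -0.85 without Sesn1Tg replicate 3, where 2 were called lower. Cryab (αB-crystallin) was the nearest to a call at 1054, 808 and 1317 against 1675, 4172, 2206 and 2025 (-1.19, adjusted p = 0.066).

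Polyamine, redox and acute-phase genes added a few calls. Amd1, a rate-setting enzyme of polyamine synthesis, was higher in Sesn1Tg at 408, 213 and 171 against 131, 97.2, 111 and 96.7 (adjusted p = 0.024), as it was in basal muscle (1.48). Nqo1, an antioxidant target of NRF2, was higher in Sesn1Tg in immobilized (0.76) and basal muscle (0.92), while Keap1, the inhibitor of NRF2, was lower at 85.3, 72.9 and 75.5 against 116, 116, 106 and 112 (adjusted p = 0.011). The list of 44 antioxidant and glutathione genes held 2 higher and 1 lower call (6.82%, against 5.79% of all genes). Its median was 0.03, with 23 members positive and 21 negative. Lcn2, an acute-phase gene, stood at 9.17, 15.5 and 5.09 against 11.4, 228, 46.6 and 44.4 (-2.31 ± 0.56, SE, adjusted p = 0.02), with 1 Sesn2Tg library inside the Sesn1Tg range and 1 far above all others. Phlda3, a p53 target that blocks AKT, was lower in Sesn1Tg at 212, 176 and 232 against 413, 402, 375 and 352 (-0.90 ± 0.15, SE, adjusted p = 0.0027), with WT at 211, 248 and 211.

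A part of the difference between the lines did not depend on immobilization. Of 246 genes called in basal muscle (1.79% of all genes, 139 higher and 107 lower in Sesn1Tg), 75 were also called in immobilized muscle. They made up 30.5% of the basal calls, against 5.79% of all genes called in immobilized muscle. Of the immobilized calls they were 9.46%, against 1.79% of all genes called in basal muscle. All 75 had the same direction (46 higher, 29 lower). The basal and immobilized comparisons share no library. Among the 793 immobilized calls 72.6% had the same sign in basal muscle, and the like share of all genes was not computed. The median absolute log2 difference of these calls was 0.83 in immobilized and 0.21 in basal muscle. The calls were picked by their immobilized difference, which raises the first value, so these medians cannot be compared.

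Some of the genes shared by both states stood out from WT on the Sesn2Tg side. Nnt (GRCm38 chr13:119335448-119408997), the mitochondrial nicotinamide nucleotide transhydrogenase, stood at 13.1, 16.7 and 10.4 in immobilized Sesn1Tg, at 65.1, 39.8, 20.02 and 53.6 in Sesn2Tg and at 14.6, 16.7 and 13.3 in WT (-1.56 ± 0.31, SE, adjusted p = 0.0072), and in basal muscle at 21.0 ± 5.86 in Sesn1Tg and 80.2 ± 1.91 in Sesn2Tg (SD, n = 4 each). C57BL/6J mice are known to carry a deletion in this gene that related substrains lack, and whether the Sesn2Tg line carries another allele was not tested. Pla2g4e, a phospholipase, stood at 15.6, 17.4 and 7.7 against 36.7, 43.9, 42.4 and 38.5 (-1.58 ± 0.18, SE, adjusted p = 4.7e-05), with WT at 14.3, 15.6 and 14.7, and AA465934 at 0.271, 0.294 and 0.0779 against 2.21, 1.72, 2.82 and 1.93. In all 3 genes Sesn1Tg was at the WT level.

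Other genes were low in Sesn2Tg. Rasd2, a small GTPase, stood at 64.4, 39.3 and 69.6 in Sesn1Tg against 15.3, 14.7, 9.08 and 31.2 in Sesn2Tg, and Ctxn3 at 41.7, 41.8 and 33.5 against 8.12, 14.5, 14.4 and 19.3, with basal differences of 1.93 and 2.41. WT held 42.3, 58.7 and 56.3 for Rasd2 and 51.7, 49.2 and 42.9 for Ctxn3, the level of Sesn1Tg. The antisense RNA 4930512H18Rik was alike, at 7.22, 6.24 and 8.56 against 3.66, 0.715, 0.793 and 2.26.

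**Figure D5:**
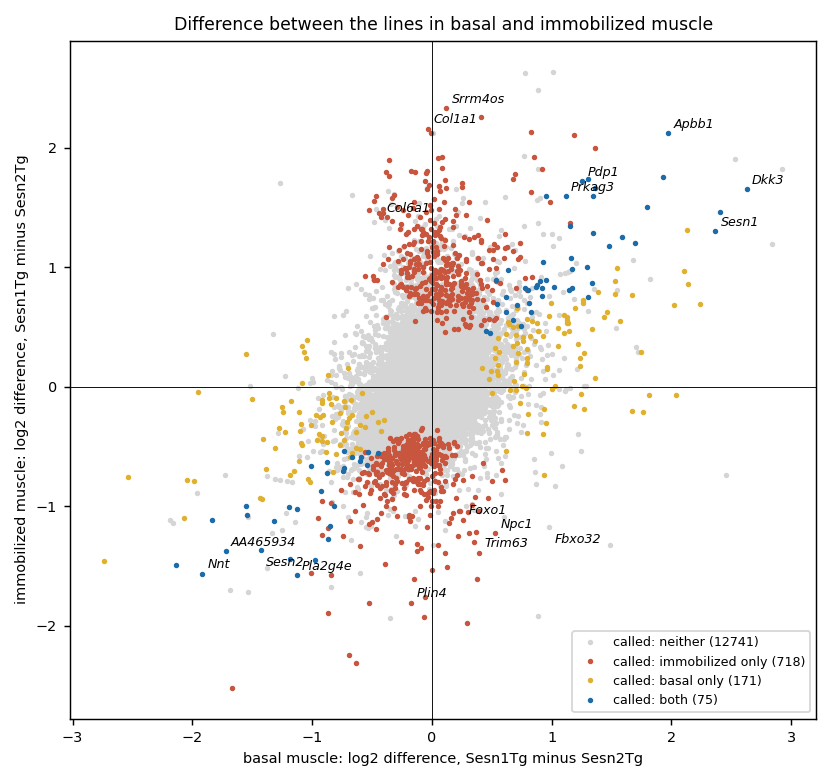
Log2 difference between the lines (Sesn1Tg minus Sesn2Tg) for each of 13705 genes in basal muscle (horizontal) and immobilized muscle (vertical), coloured by the state in which the gene was called. The 75 genes called in both states lie in the lower left and upper right, and Col1a1, Plin4 and Trim63 are far from 0 on the vertical axis only.

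For 15 genes (0.109%), the effect of immobilization itself differed between the lines, 8 (0.0584%) with the more positive effect in Sesn1Tg and 7 (0.0511%) with the more negative (1407 genes had an unadjusted p under 0.05). Col6a2 (1.90), Col6a1 (1.84), Fndc1 (1.62) and the proteoglycan gene Podn (1.49) are genes of the matrix, and Fcna (1.72) and Cbr2 (1.38) are expressed by resident macrophages. In basal muscle Col6a1 stood at 37.5 ± 7.76 in Sesn1Tg and 50.2 ± 7.98 in Sesn2Tg (SD, n = 4 each), and after immobilization all Sesn1Tg libraries were above and all Sesn2Tg libraries below these means. On the negative side, Npc1 (-1.75), the cholesterol exporter of lysosomes, stood at 91.7 ± 11.01 in basal Sesn1Tg and 63.5 ± 10.002 in basal Sesn2Tg, but at 42.7, 45.5 and 59.2 against 117, 105, 102 and 140.1 in immobilized muscle. Asb2 (-1.28), a ubiquitin ligase adaptor of muscle, changed sides likewise, from 872 ± 78.1 and 580.1 ± 49.0 in basal muscle (SD, n = 4 each) to 527, 449.6 and 339 against 713, 721, 810.4 and 576. With Sesn1Tg replicate 1 left out, 231 genes were called for this difference, and without replicate 2 there were 7.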

How the data were processed

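RNA of TA muscle was sequenced by the authors (NEBNext Ultra RNA libraries, Illumina HiSeq). The deposited values are normalized counts, a linear signal that the authors made with Cutadapt 1.7.1, RSEM 1.2.20 on mouse transcripts (GRCm38) and limma. They are not whole numbers and no read counts could be recovered from them, so counting error and limits of detection are not given. The 22 libraries of set 1, in 6 groups, were fitted together with limma 3.58.1 in R 4.3.3 (group as the only term, eBayes with trend) on log2(value + 1), for the 13705 of 13809 genes that reached 1 in any of them. A fold change on this scale understates the change of low genes. Gene coordinates are those of GENCODE M21 (GRCm38), and promoter windows and their motifs are from RefSeq (GRCm38.p6).

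The genes, lists and comparisons were chosen with earlier results of these data known. Named are Sesn1, Sesn2, Sesn3, Apbb1 and its neighbours, Fbxo32, Trim63, the 15 largest calls in each direction that held with each library left out, up to 4 called members of a list, the largest calls of the basal comparison and of the difference in the immobilization effect, and members of counts of 5 or fewer. Genes outside this rule are the uncalled fibroblast markers. Some genes that meet the rule are not reported here. In data simulated at the size of the immobilized comparison, 78 of 100 changes of log2 1 and 95 of 100 of log2 2 were recovered with 9 false calls. The simulated noise was independent between genes and of equal spread in all libraries, and low genes were given no change. The real libraries differ in quality, so these rates cannot be carried over to the calls reported here. Alternatives were the filter, pseudocount, scaling, variance prior, library weights, samples fitted, a replicate block, the fold threshold and each library left out. Symbols of the Septin and MARCH families are dates in the table and were not used. Python 3.11.15 with pandas 2.3.3, scipy 1.17.1 and matplotlib 3.10.9 made the remaining values and figures.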

Additional observations from a re-analysis of the deposited data

Results flagged for a closer look

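In 12 of 179 named genes, 1 of the 4 immobilized Sesn2Tg libraries stood apart from the other 3 by Dixon's test at the 95% level on the untransformed values. By chance the test flags about 1 of 20 groups of normally distributed values, which these values need not be. The genes share the same libraries as well, so 12 of 179 cannot be set against that rate. Of the 12, 7 were in replicate 2. In that library Fkbp5 (110.1), Pdia4 (17.8), Lcn2 (228), Kif20a (1.09), Ccnb1 (0.953) and Col1a1 (147) were the highest of their group and Optn (120.1) the lowest. The others were Col14a1 in replicate 1 (2.94, the lowest), Klf10 (60.5) and 9430073C21Rik (23.5) in replicate 3, and Tmem140 (105) and Cbr2 (14.7) in replicate 4, each the highest.

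The effect of immobilization differed between the lines, by limma's test of that difference, for 15 genes. It was more positive in Sesn1Tg for Col6a2 (1.90), Col6a1 (1.84), Foxo6os (1.82), Fcna (1.72), Fndc1 (1.62), Podn (1.49), Calml4 (1.43) and Cbr2 (1.38). It was more negative for Npc1 (-1.75), Tmem140 (-1.68), Plin4 (-1.63), Txnip (-1.39), Gm12199 (-1.29), Asb2 (-1.28) and Slc15a4 (-1.16). The calls of Npc1, Plin4, Col6a1 and Fcna held in all 29 alternative settings. Those of Txnip, Foxo6os, Slc15a4, Calml4 and Podn were lost in 17, 13, 12, 10 and 8 of them. For Foxo6os, Gm12199 and Calml4 the difference between the lines lay in basal muscle (-1.55, 1.37 and -1.04), and in immobilized muscle it was 0.27, 0.07 and 0.39, none called. Txnip, an inhibitor of glucose uptake, was called in immobilized muscle alone (-0.78), and Tmem140 and Slc15a4 in basal muscle alone (0.94 and 0.62).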

How the results depend on the processing

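The 793 calls between the immobilized lines (395 higher, 398 lower) became 4297 (2009 and 2288) with library weights, under which Sesn1Tg replicate 2 weighed 3.868 and its fellow libraries 0.4279 and 0.4747, and 143 (50 and 93) when only both groups were fitted. At an absolute log2 difference of at least 1 there were 256 (185 and 71). Scaling to a common sum left 186 lower calls. With the replicate number as a block there were 538 calls, 253 of them lower. The numbers do not pair the lines, since same-numbered libraries correlated in their deviations at 0.25, -0.07 and -0.31. Leaving out each library in turn gave 146 to 1308 calls, 68 to 872 higher and 78 to 436 lower. Basal calls (246) were 901 with weights, 112 at the larger fold and 128 to 201 with a library left out. The 15 calls for the difference in the immobilization effect were 23 with a pseudocount of 5, 23 after quantile normalization, 1303 with weights and 7 to 231 with a library left out. Other filters, a pseudocount of 0.1, other variance priors, median centring and no fold threshold kept each of these counts within 1.5 times its value.

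Among results for single genes, 4339 kept direction and side of the threshold, 810 lost and 31 gained a call, and 3, all uncalled, changed sign: Foxo6os with library weights (-0.24), Gm12199 without Sesn1Tg replicate 1 (-0.0033, range with a library left out up to 0.11) and Pdk4 without Sesn2Tg replicate 4 (0.053, range from -0.35). Scaling left 22 matrix genes higher, and the medians of the oxidative phosphorylation, fatty acid and glucocorticoid lists negative. The causes were not tested. The unknown read depth limits what low values such as those of Gm12199 or Chrna9 can show.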

Other observations

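Further calls between the immobilized lines concern the fibre membrane and its signalling. Of 19 dystrophin complex genes, 3 were lower in Sesn1Tg (15.8%, against 2.9% of all genes) and none higher, and none was called without Sesn1Tg replicate 2 or without replicate 3. Among them were the syntrophin Sntb1 (log2 difference -1.25, adjusted p = 0.023) and caveolin-3 (Cav3, -0.60, adjusted p = 0.034). Of 40 genes of calcium handling and membrane channels, 3 were called (7.5%, against 5.79% of all genes). Calm2, a calmodulin gene, was higher in Sesn1Tg at 99.8, 141 and 103 against 71.6, 54.5, 78.6 and 59.5 (0.78 ± 0.16, SE, adjusted p = 0.0091). The calmodulin-dependent kinase genes Camk2a and Camk2b went opposite ways, by 0.67 (adjusted p = 0.035) and -0.54 (adjusted p = 0.028).

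The translation factor genes Eif2b2 and Eif2b1, subunits of the exchange factor that eIF2α phosphorylation blocks, were lower in Sesn1Tg by -0.62 (adjusted p = 0.011) and -0.48 (adjusted p = 0.035). So was the cap-binding gene Eif4e2 (-0.47, adjusted p = 0.026), making 3 of 62 called lower (4.84%, against 2.9% of all genes) with none higher. The calls of Eif2b1 and Eif4e2 were lost in 9 and 8 of 21 alternative settings, and that of Eif2b2 in 3. Both mitochondrial rRNA genes were lower as well, mt-Rnr2 at 2374, 2396 and 1372 against 3672, 2986, 4214 and 3652 (-0.86 ± 0.20, SE, adjusted p = 0.017) and mt-Rnr1 by -0.79 (adjusted p = 0.028). These 2 calls were lost in 5 and 8 of 21 alternative settings. Aacs, an enzyme that activates acetoacetate, stood at 3.34, 4.21 and 7.93 against 11.9, 18.9, 14.4 and 25.2 (-1.61 ± 0.31, SE, adjusted p = 0.0065), and its call held with any library left out.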
